A study of Mus musculus with 2 samples.

Results

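Sag, Casc1, Smagp, Armh2, Gprc5b and Nox1 are 6 genes best known outside the T cell lineage that were detected at a low level in mouse splenic CD8 T cells and stood lower in cells from mice given dehydroepiandrosterone (DHEA). The 6 genes were selected on the summed counts of the DHEA and CTRL libraries, so the size and direction of that difference are given as a description and carry no test. They are 6 of the 33696 genes in the matrices and of the 10515 genes with at least 200 unique molecular identifiers (UMIs, each a tag on 1 captured transcript) over both libraries, and all 6 passed that minimum. The DHEA library holds CD8 T cells from spleens of wild-type C57BL/6 mice injected daily under the skin with DHEA at 40 mg/kg in 20 µL of sesame oil over 21 days, a treatment used to model polycystic ovary syndrome. The CTRL library holds the same cells from wild-type C57BL/6 mice injected with the oil alone on that schedule. Cells were enriched with magnetic beads and pooled for droplet sequencing of transcript 3′ ends. The sources used here do not give age, sex or the number of animals per library. There was 1 library per group, so no difference had a replicate check, and every interval below is at the 95% level and covers counting error only.

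CD8 T cells are the cytotoxic arm of the adaptive immune system and circulate through the spleen as naive, memory and effector cells. DHEA is a steroid that tissues convert to androgens and oestrogens. None of the 6 genes is a textbook marker of a CD8 T cell state. Sag encodes visual arrestin, which ends the light response in photoreceptors. Gprc5b encodes an orphan G protein-coupled receptor of the retinoic acid-induced GPRC5 family. Nox1 encodes a membrane NADPH oxidase that makes superoxide and is best known in colon epithelium and smooth muscle. Casc1 encodes a protein tied to the dynein motors of motile cilia, Smagp a small transmembrane glycoprotein of epithelial cell contacts, and Armh2 a little-studied protein with an armadillo-like helical domain.

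Cells were counted when they had at least 200 detected genes, under 10% mitochondrial UMIs, a UMI of Cd8a or Cd8b1 and a UMI of Cd3d, Cd3e or Cd3g. That left 10699 of 12128 DHEA barcodes with 50077687 UMIs and 8717 of 9495 CTRL barcodes with 49239407 UMIs. The DHEA cells were shallower, at a median of 4483 UMIs against 5615 in CTRL cells. Median mitochondrial shares were 2.02% and 2.51% in DHEA and CTRL cells, and ribosomal protein shares 31.4% and 30.7%. The 2 libraries shared 40 barcodes among these cells. Levels are given in CPM, the UMIs of a gene per 1000000 UMIs summed over the cells of a library. They are not scaled to transcript length, so levels are compared between libraries and cell groups and not between genes.

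In these summed counts, Sag stood at 10.8 CPM in the DHEA library (539 UMIs, 9.87 to 11.7) and 27.4 CPM in the CTRL library (1350 UMIs, 26.0 to 28.9), a log2 ratio of -1.35 (-1.50 to -1.20). The DHEA level was 39.3% of the CTRL level. The sequence around the Sag start site is shown because Sag gave the most UMIs of the 6 genes. It is the RefSeq window on GRCm38.p6, chr1:87803430-87803729, plus strand, and the search described below found no motif in it.

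Sag: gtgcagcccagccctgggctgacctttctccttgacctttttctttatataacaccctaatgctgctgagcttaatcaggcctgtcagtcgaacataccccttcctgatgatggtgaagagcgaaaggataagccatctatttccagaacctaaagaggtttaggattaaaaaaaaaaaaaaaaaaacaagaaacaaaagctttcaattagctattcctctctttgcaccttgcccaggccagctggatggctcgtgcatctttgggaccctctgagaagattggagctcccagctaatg

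Gprc5b stood at 1.34 CPM in the DHEA library (67 UMIs, 1.04 to 1.70) and 3.09 CPM in the CTRL library (152 UMIs, 2.62 to 3.62), a log2 ratio of -1.21 (-1.64 to -0.78). Nox1 stood at 2.68 CPM in the DHEA library (134 UMIs, 2.24 to 3.17) and 6.23 CPM in the CTRL library (307 UMIs, 5.56 to 6.97), a log2 ratio of -1.22 (-1.52 to -0.92). Neither pair of intervals overlapped, but the genes were picked on this contrast, so nothing is read from that. The Nox1 window on GRCm38.p6 is chrX:134111805-134112104, minus strand, and capitals mark a match to the RUNX motif TGTGGT.

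Nox1: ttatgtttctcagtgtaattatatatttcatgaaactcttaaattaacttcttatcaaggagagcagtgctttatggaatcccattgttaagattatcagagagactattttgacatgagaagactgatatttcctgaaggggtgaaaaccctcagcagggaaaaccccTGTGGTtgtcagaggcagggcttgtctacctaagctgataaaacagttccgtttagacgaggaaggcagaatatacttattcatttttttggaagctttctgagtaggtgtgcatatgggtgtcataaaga

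Casc1 stood at 1.30 CPM in the DHEA library (65 UMIs, 1.00 to 1.65) and 3.43 CPM in the CTRL library (169 UMIs, 2.93 to 3.99), with the most negative log2 ratio of the 6 genes at -1.40 (-1.84 to -0.98). That interval holds the ratio of each of the other 5 genes. The Casc1 window on GRCm38.p6 is chr6:145210921-145211220, minus strand, and capitals mark matches to the ETS motif CCGGAA.

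Casc1: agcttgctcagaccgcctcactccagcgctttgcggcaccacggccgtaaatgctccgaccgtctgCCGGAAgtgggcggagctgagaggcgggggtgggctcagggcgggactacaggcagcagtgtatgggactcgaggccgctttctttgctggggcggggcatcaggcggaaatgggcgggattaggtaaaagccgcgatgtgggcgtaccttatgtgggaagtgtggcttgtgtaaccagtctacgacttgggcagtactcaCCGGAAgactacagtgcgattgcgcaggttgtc

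Armh2 stood at 1.48 CPM in the DHEA library (74 UMIs, 1.16 to 1.86) and 3.66 CPM in the CTRL library (180 UMIs, 3.14 to 4.23), a log2 ratio of -1.31 (-1.72 to -0.91). Smagp stood at 2.00 CPM in the DHEA library (100 UMIs, 1.62 to 2.43) and 4.87 CPM in the CTRL library (240 UMIs, 4.28 to 5.53), a log2 ratio of -1.29 (-1.64 to -0.94). The 6 genes thus stood at 37.8% to 43.3% of their CTRL level in the DHEA library. They were picked on this ratio, so the narrow span is not read as a shared size of difference. The plot of levels and cell shares shows the separation of the libraries for each gene.

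**Figure D1:**
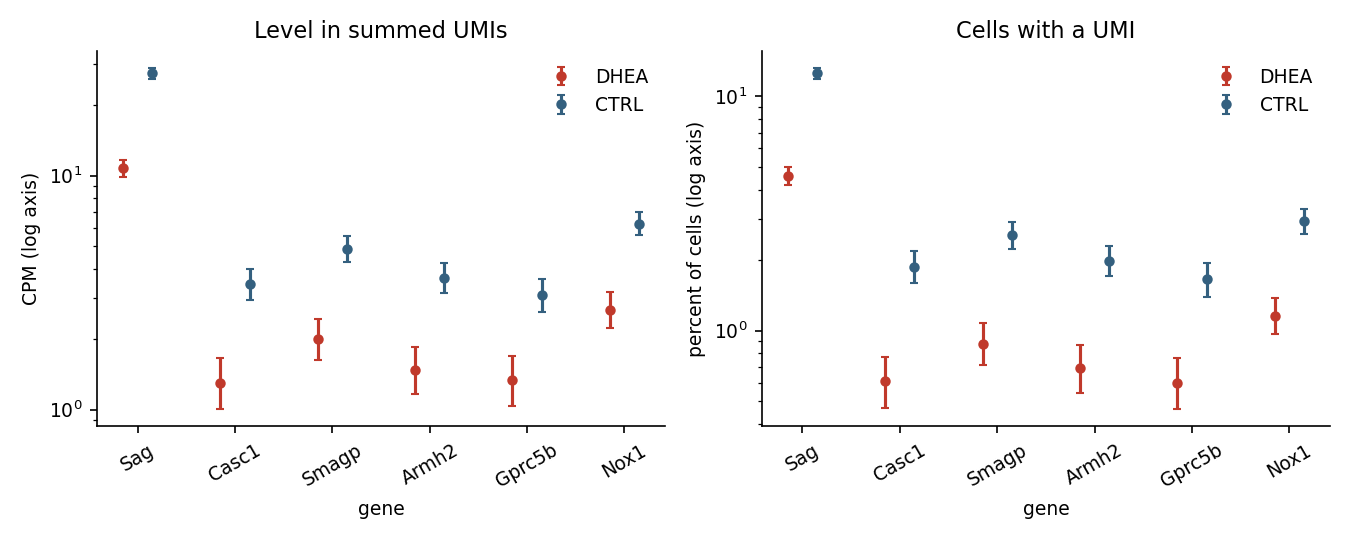
The left panel plots the CPM of each of the 6 genes on a log axis in the DHEA (red) and CTRL (blue) libraries with exact Poisson intervals, and the right panel the percent of cells with a UMI with exact binomial intervals. For every gene the DHEA interval lies below the CTRL interval, as for Sag at 10.8 and 27.4 CPM. The genes were picked on this contrast, so nothing is read from that gap.

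All 6 genes had DHEA levels at least 1.5-fold under their CTRL levels, as did 151 of the 10515 measured genes (1.44%) and 126 of the 4775 genes with at least 200 and under 2000 UMIs (2.64%), the range that holds all 6. Since the genes were picked on this contrast, nothing is read from that count. The median log2 ratio was -1.30 over the 6 genes and -0.0024 over all measured genes. In the order of log2 ratios from the lowest, the 6 genes took places 6, 7, 9, 10, 11 and 12. The other 6 of the 12 lowest were Eps8l1 (-3.63), Gm56626 (-2.07), Gm56767 (-1.57), Sox5 (-1.53), Gm11290 (-1.41) and Gm28068 (-1.33), and just outside them Ndufs8 (-1.13), Xlr3b (-1.12), Gm11867 (-1.11) and Gm53240 (-1.11).

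The 5 genes with a RefSeq start-site window (Armh2 is named only) were searched on both strands for 4 motifs. These were AGAACA, the core bound by the androgen receptor, the RUNX motif TGTGGT, the ETS motif CCGGAA and the TCF/LEF motif CTTTGA, each with its reverse complement. The windows shown above for Nox1 and Casc1 hold the matches found, and the windows of Sag, Smagp and Gprc5b hold none of the 4. Among 32851 windows of the same length genome-wide, 19.0% held AGAACA, 16.8% TGTGGT, 14.9% CCGGAA and 16% CTTTGA. A match is a description of these letters and does not show a bound site.

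Few cells carried a UMI of any of the 6 genes. A Sag UMI was found in 491 DHEA cells (4.59%, 4.20 to 5.0) and 1091 CTRL cells (12.5%, 11.8 to 13.2). Nox1 was found in 124 DHEA cells (1.16%) and 256 CTRL cells (2.94%), and Smagp in 94 DHEA cells (0.879%) and 223 CTRL cells (2.56%). Armh2 was found in 74 DHEA cells (0.692%) and 173 CTRL cells (1.98%), Casc1 in 65 (0.608%) and 163 (1.87%), and Gprc5b in 64 (0.598%) and 144 (1.65%). These shares follow depth as well as level, and the CTRL cells were deeper.

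After each cell was thinned to 1000 UMIs, which left out 137 DHEA and 8 CTRL cells that were shallower, Sag was found in 108 of 10562 DHEA cells (1.02%) and 221 of 8709 CTRL cells (2.54%). The difference was -1.52 percentage points (-1.91 to -1.14). Nox1 was found in 0.275% of thinned DHEA cells and 0.632% of thinned CTRL cells, Smagp in 0.180% and 0.413%, Armh2 in 0.123% and 0.402%, Casc1 in 0.114% and 0.356%, and Gprc5b in 0.161% and 0.299%. All 6 shares were lower in DHEA cells at equal depth, as the choice of the genes on the summed counts made likely. The Gprc5b difference was the smallest at -0.138 points (-0.289 to -0.00224), resting on 17 DHEA and 26 CTRL cells.

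Cells of like depth gave the same direction, though the bins split the same counts on which the 6 genes were picked. Mostly lower values therefore follow from that choice. Cells were split into 5 bins of UMIs per cell, giving 30 values for the 6 genes. DHEA cells had the lower CPM in 28 of the 30, and the interval of the ratio lay below 0 in 24. The other 2 had no ratio: Casc1 and Armh2 had 0 UMIs in the 231 CTRL cells under 2000 UMIs. The Sag share was 1.88% in DHEA cells and 4.33% in CTRL cells under 2000 UMIs, and 7.54% in DHEA cells and 18.7% in CTRL cells with 8000 or more UMIs. The share grew with depth in both libraries and the gap held in each bin, as the plot of shares by depth shows.

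**Figure D2:**
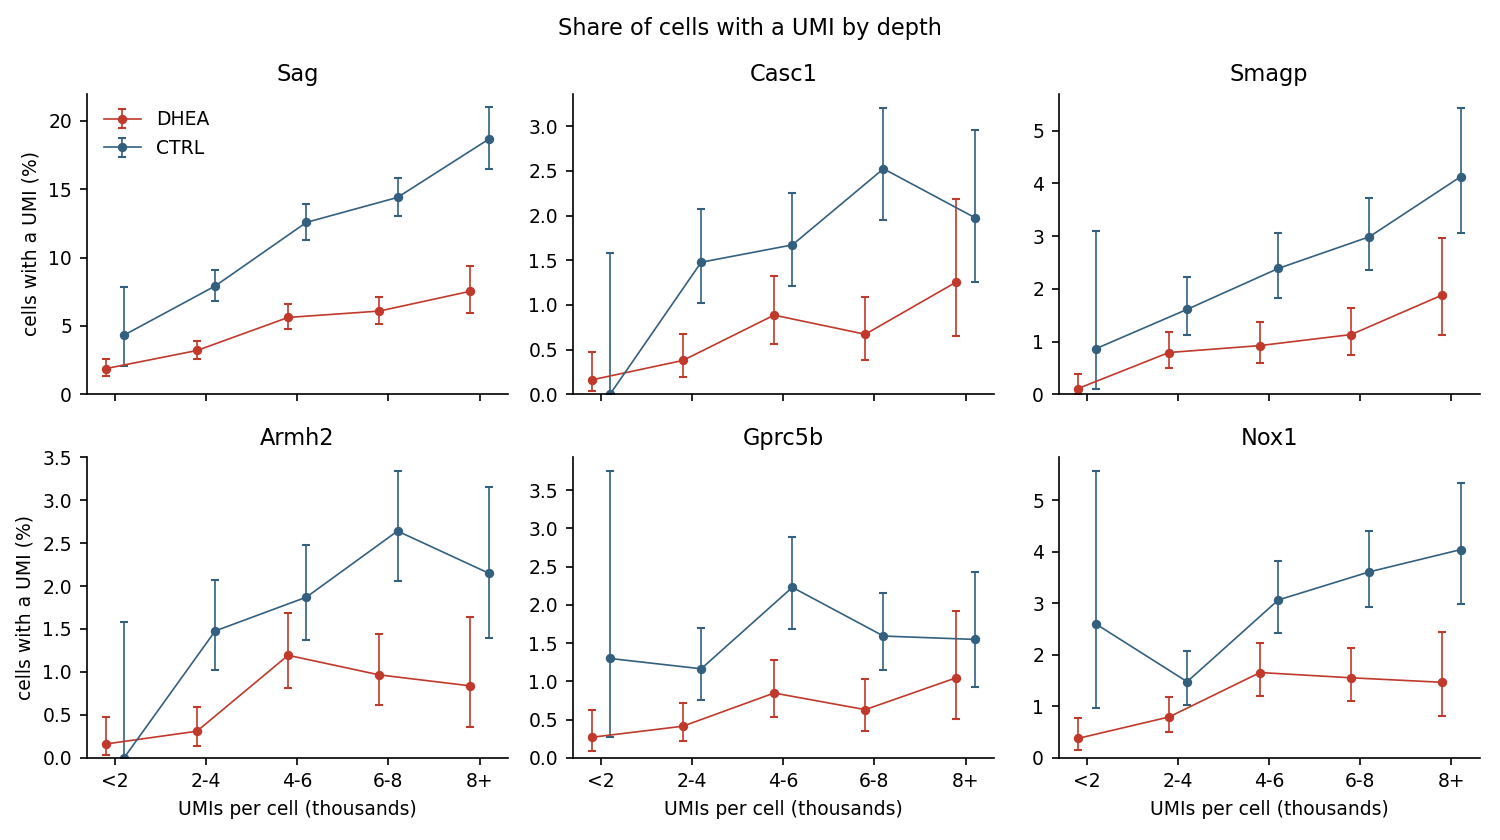
Each panel plots the percent of cells with a UMI of a gene (y) against bins of UMIs per cell in units of 1000 (x) in the DHEA (red) and CTRL (blue) libraries, with exact binomial intervals. The Sag share reaches 7.54% in the deepest DHEA cells and 18.7% in the deepest CTRL cells, and only the shallowest bin of Casc1 and Armh2, with 0 CTRL cells, has DHEA above CTRL.

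Cells with more than 1 UMI of the same gene made up a smaller share of the positive DHEA cells for Sag and Nox1, but not for every gene. Of the Sag-positive cells, 41 DHEA cells (8.35%) and 208 CTRL cells (19.1%) had at least 2 Sag UMIs, and the highest count in a cell was 3 in the DHEA library and 5 in the CTRL library. Of the Nox1-positive cells, 9 DHEA cells (7.26%) and 42 CTRL cells (16.4%) had at least 2. For Smagp these cells were 6 (6.38%) in the DHEA library and 14 (6.28%) in the CTRL library, and for Gprc5b 3 (4.69%) and 7 (4.86%), level between the libraries. Casc1 had 0 DHEA and 6 CTRL cells with at least 2 UMIs, and Armh2 0 and 7. These counts follow depth too: after thinning to 1000 UMIs, 3 of 108 Sag-positive DHEA cells (2.78%) and 9 of 221 Sag-positive CTRL cells (4.07%) had at least 2.

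Few cells held more than 1 of the 6 genes. At least 1 of the 6 was found in 872 DHEA cells (8.15%) and 1864 CTRL cells (21.4%), but at least 2 different ones in 39 DHEA cells (0.365%) and 174 CTRL cells (2.00%), and no cell held more than 3. Among cells with at least 6000 and under 8000 UMIs, another of the genes was found in 3 of 145 Sag-positive DHEA cells (2.07%) and 114 of 2237 Sag-negative DHEA cells (5.10%). The same figures were 58 of 371 (15.6%) and 262 of 2205 (11.9%) in CTRL cells. In the bin of 4000 to under 6000 UMIs the order turned round in both libraries, with 9.59% of Sag-positive and 4.86% of Sag-negative DHEA cells and 8.86% of Sag-positive and 10.97% of Sag-negative CTRL cells. No steady excess of the other 5 genes in Sag-positive cells was seen.

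To ask whether the genes were restricted to a cell state, cells were grouped by Leiden clustering on variable genes with the 6 genes left out, which gave 14 clusters. Clusters were given a name only where at least 3 markers of a state stood among their 10 leading genes: memory-like (cluster 5, led by Gzmm, Cxcr3 and Ly6c2), NF-kB-high-like (cluster 6), effector-like (cluster 7, led by Gzma and S100a4, with the cell-cycle genes Pclaf and Ube2c), interferon-responding-like (cluster 8), innate-like (cluster 9, led by Klra7 and Klra1) and early-activated-like (cluster 12, led by Egr3 and Tnfrsf9). The other 8 stayed unnamed and go by number. Sag, Casc1 and Nox1 had a UMI in all 14 clusters in both libraries. Armh2 had one in 11 DHEA and 14 CTRL clusters, Smagp in 11 and 13, and Gprc5b in 10 and 13, so none of the 6 was confined to a cluster.

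Sag was the only one of the 6 with at least 20 UMIs over both libraries in every cluster, and its DHEA level was the lower in all 14. The interval of the ratio lay below 0 in 11 of them. In CTRL cells the level was highest in cluster 10 at 42.1 CPM (25.7 to 65.1), followed by cluster 2, led by Igf1r, at 36.3 CPM (32.3 to 40.6), and these 2 intervals overlap. It was lowest in cluster 4, led by Iigp1 and Tgtp2, at 14.1 CPM (10.8 to 18.1). The other 11 CTRL clusters lay between 20.7 CPM in the effector-like cluster and 29.9 CPM in cluster 0, with overlapping intervals.

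In DHEA cells Sag was again highest in cluster 10, at 31.8 CPM (20.6 to 47.0), and lowest in cluster 11, led by Hdac9 and Myb, at 5.67 CPM (2.28 to 11.7). The memory-like cluster had 8.78 CPM in DHEA cells and 25.4 CPM in CTRL cells, a log2 ratio of -1.53 (-2.26 to -0.84). The effector-like cluster had 9.61 CPM in DHEA cells and 20.7 CPM in CTRL cells (-1.10, -1.91 to -0.31), and the innate-like cluster 8.28 and 24.5 CPM (-1.57, -2.60 to -0.63). Sag thus stood lower in DHEA cells of the memory-like, effector-like and innate-like clusters as well as of the large unnamed clusters. Its interval included 0 in the interferon-responding-like cluster (-0.76, -1.69 to 0.10) and in cluster 13 (-0.85, -2.63 to 0.62). The clusters split the same counts on which Sag was picked, so a lower level in most of them follows from that choice.

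The whole-library Sag ratio of -1.35 lay outside the interval of 3 clusters. Cluster 2 had 10.4 CPM in DHEA cells and 36.3 CPM in CTRL cells, a larger gap at -1.81 (-2.20 to -1.43). Cluster 4 had 9.26 CPM in DHEA cells and 14.1 CPM in CTRL cells, a smaller one at -0.60 (-1.21 to -0.01). Cluster 10 had 25 DHEA and 20 CTRL UMIs and a ratio of -0.40 (-1.31 to 0.52), which includes 0. Cluster 10 also had the lowest ribosomal protein share, 9.7% of UMIs in DHEA cells and 7.5% in CTRL cells, and its leading genes include Gphn, Lars2 and Macf1. Whether clusters differ in the ratio was not tested, since cells of a library are not replicates.

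**Figure D3:**
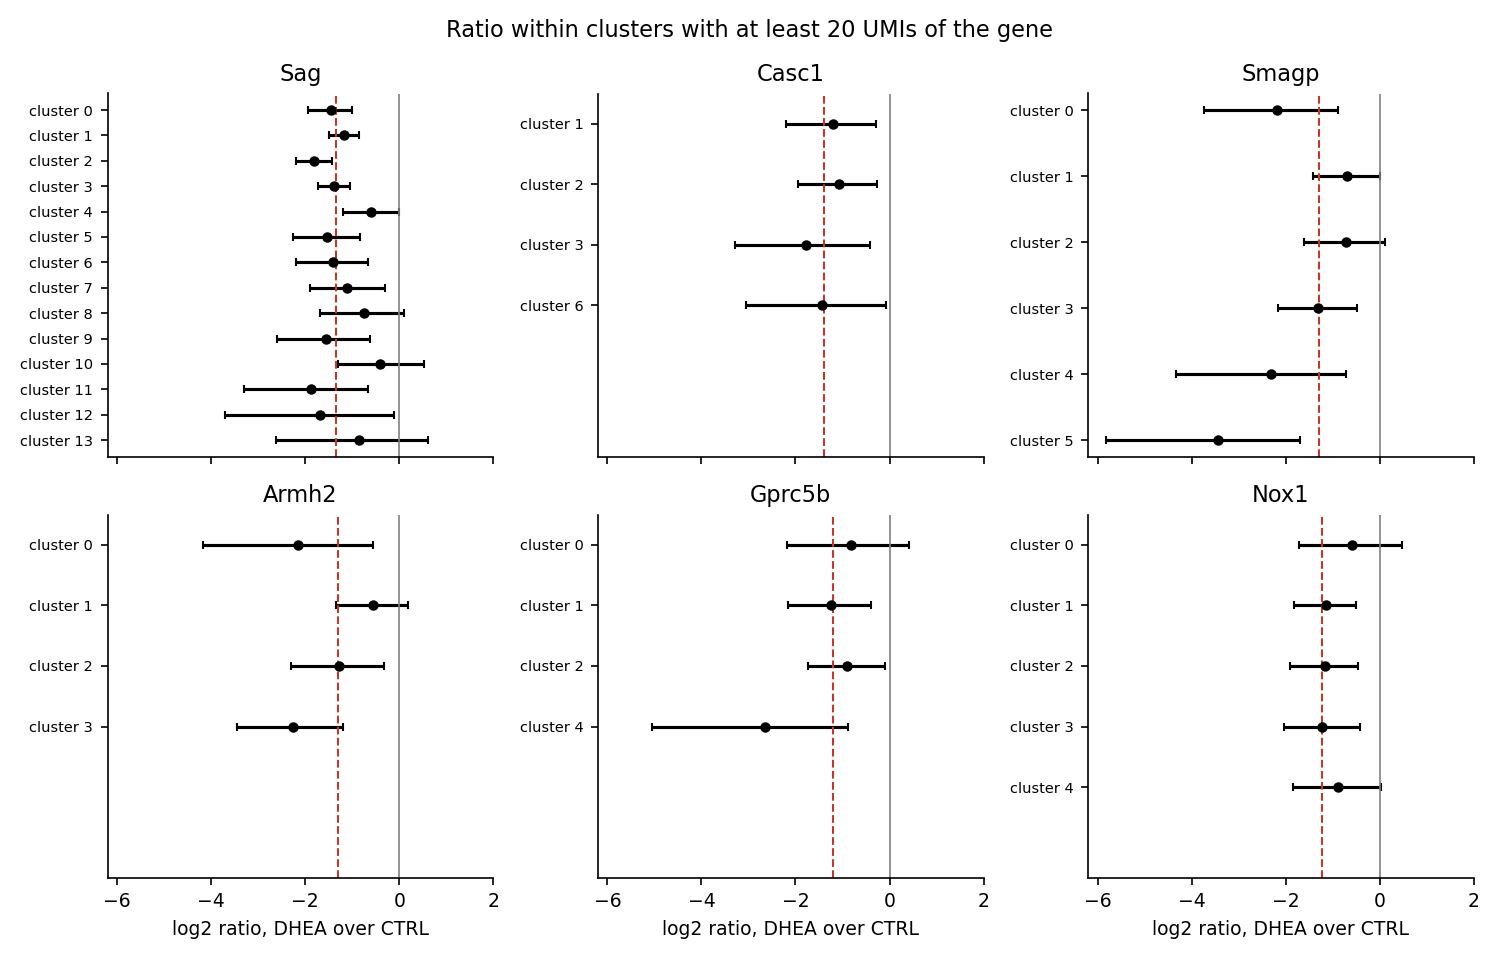
Each panel plots, for a gene, the log2 ratio of DHEA over CTRL (x) in each cluster with at least 20 UMIs of that gene (y), with exact intervals; the grey line marks 0 and the red dashed line the ratio over all cells. All plotted points lie below 0, and the widest spread is that of Smagp, with -3.44 in the memory-like cluster 5 and -0.70 in cluster 1.

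The other 5 genes reached 20 UMIs in 4 to 6 clusters each, and in all of those each had a lower DHEA level. Lower values in most clusters follow from the choice of the genes on the same counts. Over all 14 clusters, sparse ones included, Armh2 was lower in DHEA cells in 14, and Smagp in 13 with 0 UMIs in the last. Nox1 was lower in 12 clusters and higher in 2, and Casc1 and Gprc5b were each lower in 11 and higher in 3. The intervals of all those higher values include 0. Nox1 had ratios of -1.22 to -0.60 in its 5 clusters, and no interval missed its whole-library value. Nox1 was at 3.25 CPM in DHEA cells and 7.19 CPM in CTRL cells of cluster 1, which was led by Ccr9 and Plaur. Below the 20-UMI limit it had 2 DHEA and 17 CTRL UMIs in the innate-like cluster and 2 and 16 in cluster 11, but 4 DHEA and 2 CTRL UMIs in the memory-like cluster (0.44, -2.36 to 3.91). Casc1 was lower in all 4 of its clusters, with each interval below 0, among them the NF-kB-high-like cluster at 2.88 CPM in DHEA cells and 7.82 CPM in CTRL cells.

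Smagp varied most. In the memory-like cluster it had 3 UMIs in DHEA cells (0.98 CPM) and 22 in CTRL cells (10.6 CPM, 6.61 to 15.97), a log2 ratio of -3.44 (-5.82 to -1.70) whose interval misses the whole-library value. Cells of that cluster had a median of 2512.5 UMIs in the DHEA library and 5378 in the CTRL library. The unnamed cluster 3 had more of the memory gene Cd44, at 76.7 CPM in DHEA and 83.5 CPM in CTRL cells, against 57.5 and 38.8 CPM. Its Smagp ratio was -1.31 (-2.17 to -0.49), so -3.44 is not a value of memory cells at large. In cluster 1 it stood at 3.14 CPM in DHEA cells and 5.08 CPM in CTRL cells (-0.70). In the effector-like cluster, where it had 12 DHEA and 7 CTRL UMIs, the ratio was -0.03. Armh2 ranged over its 4 clusters between -2.25 in cluster 3, led by Gzmm, and -0.57 in cluster 1.

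Gprc5b was sparse in cluster 3 and in the memory-like, innate-like and effector-like clusters, and was found in most of the others. Its CTRL level was highest in clusters 1 and 2, at 4.41 and 5.36 CPM, with 46 and 45 of its 152 UMIs. Cluster 4 at 4.15 CPM (2.46 to 6.56) and cluster 0 at 3.19 CPM (1.86 to 5.11) had intervals that overlap theirs. In DHEA cells the level was highest in cluster 11, at 5.67 CPM (2.28 to 11.7). In CTRL cells it had 3 UMIs in cluster 3, 4 in the memory-like, 1 in the innate-like and 0 in the effector-like cluster. Its DHEA level was the higher in the NF-kB-high-like cluster, with 7 DHEA and 3 CTRL UMIs (1.52, -0.61 to 4.10), and in cluster 11, with 7 and 4 (1.03, -0.95 to 3.25). Ccl5 encodes a chemokine of memory and effector CD8 T cells, and a split of cells by Ccl5 UMIs gave the same picture. In CTRL cells Gprc5b stood at 0.609 CPM (0.198 to 1.42) with 5 or more Ccl5 UMIs, against 3.84 CPM (3.20 to 4.58) with no Ccl5 UMI. In DHEA cells it stood at 0.128 CPM (0.0155 to 0.461) with 5 or more, against 2.19 CPM (1.63 to 2.89) with none. Sag in CTRL cells was 25.6 CPM with 5 or more Ccl5 UMIs and 27.4 CPM with none, so it did not follow Ccl5 in that library. In DHEA cells it was 9.76 CPM with 5 or more (8.28 to 11.4) and 12.1 CPM with none (10.8 to 13.7).

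Cell states differed in number between the libraries. Ccl5 UMIs were found in 5225 of 10699 DHEA cells and 2582 of 8717 CTRL cells, and all 12 measured genes of the memory list were higher in the DHEA library. All 11 genes of the effector list were at least 1.5-fold higher there, with a median log2 ratio of 2.17 and a summed level of 449.7 CPM in the DHEA library and 151 CPM in the CTRL library. All 6 HSP70 stress genes were higher, among them Hspa1a (1.86) and Hspa1b (1.73). Of 10 myeloid markers, 6 were measured, 4 higher and 2 lower, with a summed level of 223 CPM in the DHEA library and 209.6 CPM in the CTRL library. The neutrophil genes S100a8 and S100a9 had 205 and 258 UMIs in the DHEA library against 1 each in the CTRL library. Of 7 NK cell markers, several of which memory and effector CD8 T cells also express, 4 were measured. Gzma (3.79), Klre1 (1.42) and Eomes (0.76) were higher in the DHEA library. Klrb1c was near level, with 180 DHEA and 174 CTRL UMIs (0.02, -0.28 to 0.33). The summed level of the list was 145 CPM in the DHEA library and 51.4 CPM in the CTRL library. The NK receptor gene Ncr1 had 0 UMIs in the DHEA library and 21 in the CTRL library. The part of these genes in the whole-library values was not tested beyond the splits given here. The 6 genes had lower DHEA levels on both sides of the Ccl5 split, which divides the same counts on which they were picked. In cells with no Ccl5 UMI the log2 ratio was -1.17 for Sag, -0.81 for Gprc5b, -0.95 for Nox1, -1.06 for Casc1, -1.22 for Armh2 and -1.64 for Smagp. In cells with at least 1 Ccl5 UMI it was -1.52 for Sag, -1.40 for Gprc5b, -1.47 for Nox1, -1.74 for Casc1, -1.13 for Armh2 and -0.97 for Smagp. With the DHEA clusters weighted by their share of CTRL UMIs, the Gprc5b ratio was -0.99, that of Casc1 -1.24 and that of Nox1 -1.18. With the same weights it was -1.34 for Sag, -1.31 for Smagp and -1.20 for Armh2.

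No measured partner of these genes was 1.5-fold apart between the libraries. Of 4 arrestins, Sag, Arrb1 and Arrb2 were measured. Arrb1, a beta-arrestin that desensitises many receptors, stood at 9.57 CPM in the DHEA library and 11.5 CPM in the CTRL library (-0.26, -0.44 to -0.08), and Arrb2 had a ratio of 0.02. Of 26 photoreceptor genes, 4 were measured, with Gnb1 (0.03), Cnga1 (0.11) and Rom1 (0.45) higher and Guca1b (-0.30) lower. The retinal transcription factor genes Crx and Nrl had 0 UMIs in both libraries, and the phosphodiesterase subunit gene Pde6b had 0 DHEA and 15 CTRL UMIs.

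Of 16 NADPH oxidase genes, 6 were measured, 5 of them higher in the DHEA library and Nox1 lower. Cyba, the membrane partner subunit of Nox1, stood at 375.8 CPM in the DHEA library and 325.3 CPM in the CTRL library (0.21), and Ncf1, Ncf4, Rac1 and Rac2 had ratios of 0.12 to 0.31. Noxo1, the organiser of the Nox1 enzyme, had 13 DHEA and 19 CTRL UMIs, and its activator Noxa1 had 0. Cybb, the phagocyte oxidase, had 13 DHEA and 3 CTRL UMIs (2.09, 0.23 to 4.54). Gprc5b was the only measured member of the 4 GPRC5 receptors. Armh3 stood at 23.1 CPM in the DHEA library and 28.7 CPM in the CTRL library (-0.31).

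Of 24 ciliary dynein and assembly genes, 3 were measured, with ratios of 0.14 (Dnai4), 0.13 (Dnaaf2) and 0.08 (Dnaaf5) whose intervals include 0. Among those too sparse to be measured, the ones with the most UMIs were near level. Odad1 had 86 DHEA and 84 CTRL UMIs, Dnah11 36 and 31, Ccdc40 29 and 29, and Rsph1 25 and 29. With fewer UMIs, Dnah2 had 5 DHEA and 28 CTRL UMIs (-2.51, -4.24 to -1.12) and Dnai3 1 and 9, both dynein subunit genes. Foxj1, the master regulator of motile cilia, had 22 DHEA and 8 CTRL UMIs (1.44, 0.21 to 2.81). Of 15 epithelial adhesion genes only Smagp was measured. Epcam, the defining epithelial adhesion molecule, had 104 DHEA and 94 CTRL UMIs (0.12), and Krt8, Krt19 and Cldn3 had 0 in both libraries.

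Apart from Sox5, the genes beside the 6 on the chromosome had ratios closer to 0 than the 6, which were picked for low ratios. Of 36 measured neighbours, the nearest 3 on each side of each gene in the GENCODE M21 annotation of GRCm38, 23 were lower and 13 higher in the DHEA library, with a median log2 ratio of -0.08. Only Sox5, a transcription factor gene 393 kb from Casc1 with 123 DHEA and 350 CTRL UMIs (-1.53), differed by 1.5-fold or more. Among all 10515 measured genes, 151 (1.44%) were at least 1.5-fold lower and 190 at least 1.5-fold higher, so nothing is read from that count. Beside Sag, Atg16l1 had a ratio of -0.22 and Dgkd -0.08. Etfrf1 beside Casc1 had 0.03, and Ripor2 and Gmnn beside Armh2 -0.15 and 0.01. The plot over all measured genes sets the 6 and their neighbours side by side.

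**Figure D4:**
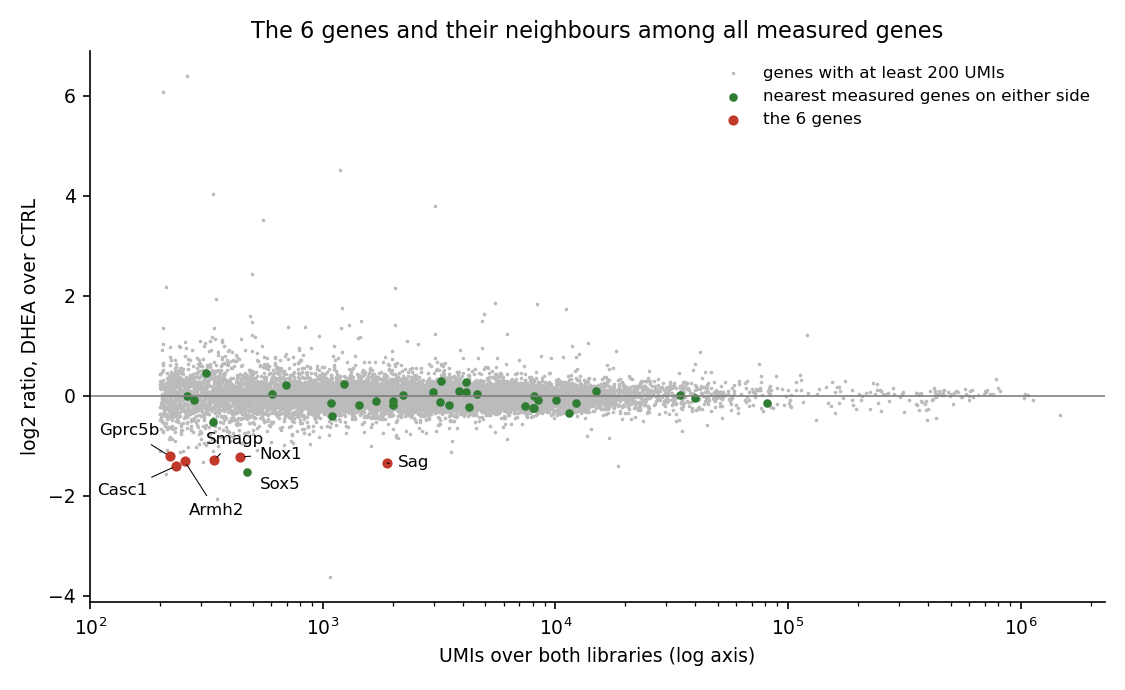
Each grey point is a gene with at least 200 UMIs, with its UMIs over both libraries (x, log axis) and its log2 ratio of DHEA over CTRL (y); red points are the 6 genes and green points their 36 neighbours. The red points lie between -1.40 and -1.21, while the green points lie between -0.52 and 0.45 except for Sox5 at -1.53.

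Some of the 6 overlap other genes, and the sources used here do not say whether the authors' counting used strand, so reads of an overlap cannot be assigned with certainty. Casc1 overlaps Irag2 (Lrmp in that annotation) on the other strand, which had a ratio of 0.04, and the antisense Gm15543, with 27 DHEA and 54 CTRL UMIs (-1.02). Nox1 overlaps Cstf2 on the other strand (-0.10) and Xkrx on its own strand, with 140 DHEA and 198 CTRL UMIs (-0.52). Gprc5b overlaps Iqck on the other strand, with 12 DHEA and 17 CTRL UMIs. Sag, Smagp and Armh2 overlap no other gene in that annotation.

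Some other measures also differed between the libraries. Malat1, a nuclear RNA, stood at 12934 CPM in the DHEA library and 16792 CPM in the CTRL library (-0.38). Neat1, another nuclear RNA, was higher in the DHEA library (0.17, 0.10 to 0.24). Of 7 listed markers of cells rich in nuclear transcripts, both included, 6 were measured, 4 lower and 2 higher. Genes with longer spans in the genome were lower in the DHEA library, with a median log2 ratio of 0.11 in the shortest and -0.15 in the longest of 5 equal groups of genes. Nox1 lies in the longest group and Armh2 in the shortest. Relative to the median of its own group each of the 6 was lower, with differences of -1.42 (Armh2) to -1.07 (Nox1). Since the 6 were picked for low values of this same ratio, that outcome was fixed by the choice. The part of gene span was not tested. The part of nuclear RNA in the result was not tested.

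Barcodes that passed the limits but lacked a Cd8 or Cd3 UMI numbered 972 in the DHEA library and 493 in the CTRL library, at medians of 1613 and 3185 UMIs. Sag stood there at 13.5 CPM in the DHEA library (32 UMIs) and 22.2 CPM in the CTRL library (44 UMIs), with a ratio of -0.72 (-1.42 to -0.03). The other genes were sparse there. Smagp had 5 DHEA and 15 CTRL UMIs (-1.84), Casc1 5 and 8 (-0.93) and Gprc5b 2 and 4 (-1.26). Nox1 and Armh2 were not lower in these barcodes, with 14 DHEA and 11 CTRL UMIs for Nox1 (0.09, -1.15 to 1.38) and 7 and 5 for Armh2 (0.23, -1.64 to 2.23). No cell type in these libraries is known to lack all 6 genes, so a level of free RNA could not be set. Within CTRL cells the Sag and Nox1 counts were 1350 and 307 over all clusters, 292 and 75 in cluster 1 and 305 and 65 in cluster 2. At the extremes they were 53 and 2 in the memory-like cluster and 30 and 16 in cluster 11. Nothing on free RNA is read from these counts. The part of free RNA in the result was not tested.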

How the data were processed

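For 1 DHEA and 1 CTRL library, unnormalized UMI counts were deposited as gene by barcode matrices. Per the file headers, Cell Ranger 8.0.1 wrote them. Seurat 4.3.0 and mm39 are listed, without roles, in the submitters' processing notes. The gate on cells is given in the report. Doublets were not called; an alternative leaves out the 10% deepest cells.

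Counts were summed over cells and scaled to CPM. CPM carry exact Poisson intervals, shares exact Clopper-Pearson intervals, share differences Newcombe intervals and ratios exact intervals from the split of both counts. A library at 0 gave a named gene no ratio, and in counts over all genes a library under 3 UMIs was put at 3. Named genes were the 6 genes, the 4 just inside and outside their ranks, the 3 nearest measured genes on each side, the 3 most alike over clusters, listed gene families and leading genes of clusters. The 6 genes and the lists were chosen with earlier results of these data known. Clusters used 2000 variable genes without the 6 genes, immunoglobulin, receptor-segment, mitochondrial, ribosomal protein, haemoglobin and sex-linked marker genes, scaled per library, with 30 components, 15 neighbours and resolution 1. The alternatives were TMM scaling, no marker gate, 2 UMIs per marker pair, a 5% mitochondrial limit, no shared barcodes, other minimum counts, thinning, no cluster 10, clusters weighted as CTRL at 2 resolutions and, chosen after seeing the data, cells without and with Ccl5 UMIs. Annotation IDs matched 95.0% of the genes. Tools were Python 3.11.15, scanpy 1.11.5, leidenalg 0.10.2, matplotlib 3.10.9, scipy 1.17.1 and statsmodels 0.14.6. TMM factors came from edgeR 4.0.16 under R 4.3.3. The summing and interval steps were tested on simulated counts.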

Additional observations from a re-analysis of the deposited data

How the results depend on the processing

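No paired analysis was possible because there was 1 library per group. Each log2 ratio was computed under 12 alternatives, 72 in all, of which 69 stayed within the counting interval of the reported value and 0 changed sign. The 3 outside it were Sag in cells with no Ccl5 UMI (-1.17) and with at least 1 (-1.52) and Smagp with no Ccl5 UMI (-1.64); the cause was not tested. Over all alternatives the ratio ran over -1.52 to -1.17 for Sag, -1.74 to -1.06 for Casc1, -1.64 to -0.97 for Smagp, -1.71 to -1.13 for Armh2, -1.40 to -0.81 for Gprc5b and -1.47 to -0.95 for Nox1. Thinned to 1000 UMIs, the Gprc5b ratio was -0.89, with an interval that includes 0 (-1.87 to 0.05). The difference in the share of cells, DHEA minus CTRL in percentage points, depends on depth by construction. Without thinning it was -7.93 for Sag, -1.26 for Casc1, -1.68 for Smagp, -1.29 for Armh2, -1.05 for Gprc5b and -1.78 for Nox1. Thinned to 2000 UMIs it was -3.02 for Sag, -0.412 for Casc1, -0.618 for Smagp, -0.636 for Armh2, -0.422 for Gprc5b and -0.603 for Nox1. With no marker gate and a new random thinning to 1000 UMIs it was -0.127 for Armh2 and -0.303 for Gprc5b. Barcodes added by dropping the gate held 7 DHEA and 5 CTRL UMIs of Armh2 and 2 and 4 of Gprc5b before thinning. The parts of the gate and of the random draw in these shifts were not separated, and the intervals do not cover the draw. The count of genes at least 1.5-fold lower (151) and higher (190) was 485 and 428 at a minimum of 50 UMIs, 37 and 72 at 1000 UMIs, 1763 and 1249 at 1 UMI, and 74 and 107 after thinning; these alternatives measure 12788, 7610, 21189 and 7579 genes. With 65 to 539 UMIs of a gene in the DHEA library, differences between single clusters are mostly within counting error for the genes other than Sag.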

Other observations

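The genes whose levels over clusters were most like those of each of the 6 genes were taken from 26 points, 13 clusters in each library, with each library centred on its own mean. For Sag these were E430024P14Rik, A930015D03Rik and Gm56530, each with a Pearson r of 0.78. For Gprc5b they were Gm57321 (0.85), Xkrx (0.78) and Sik1 (0.77), for Nox1 Mtmr2 (0.83), Pik3cb (0.82) and Hmgxb4 (0.81), for Casc1 Rnf2 (0.78), Maco1 (0.75) and Gm20186 (0.74), for Armh2 Zc3hav1l (0.79), Commd8 (0.77) and Gm50105 (0.77), and for Smagp Cep78 (0.71), Ocel1 (0.70) and Nr1d2 (0.68). The points share their library and their low counts, and these are the highest of 10515 genes compared. The 15 pairs among the 6 genes had r of -0.11 to 0.53, with a median of 0.21.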
